A study of Mus musculus with 8 samples.

Results

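The genes described here are 38 genes of sterol and fatty acid synthesis and of its control by SREBP, the sterol regulatory element-binding proteins, out of 47729 genes in the count table of neural stem cells (NSCs) and 40562 genes in that of astrocyte cultures. They were chosen by name, with no measured value in the rule, but with earlier results of these data known. Of these, 7 are enzymes of the mevalonate steps, 12 are enzymes from squalene to cholesterol and 5 are genes of SREBP control and sterol transfer. Another 10 are genes of fatty acid synthesis and 4 are genes of the liver X receptors (LXR) and sterol efflux. RNA sequencing of cells from S89G-DMP1 and wild type (WT) mice gave 3 S89G-DMP1 and 3 WT libraries of NSCs from the sub-ventricular zone, grown as neurospheres with N2 supplements, and 1 library per genotype of astrocytes from the cortex, grown in medium with 10% fetal bovine serum. S89G-DMP1 mice carry a knock-in of a glycine codon for serine 89 of dentin matrix protein 1 (DMP1), an extracellular matrix proteoglycan, which removes the site of its glycosaminoglycan chain. The line was made in C57BL/6J embryonic stem cells and bred to homozygosity after removal of the selection cassette with a FLP deleter line, WT C57BL/6 mice served as controls, and the labels give strain C57BL/6 and an age of 10 weeks for all samples. The labels number the NSC libraries 1 to 3 in each genotype but do not say whether they came from separate mice or from a shared culture, so p-values measure only the spread between these libraries.

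SREBPs are transcription factors made as membrane proteins of the endoplasmic reticulum, where SCAP, the sterol sensor that escorts them, is held back by INSIG proteins while sterol is plentiful. When sterol is short, SCAP carries the SREBPs to the Golgi, where proteases release the part that enters the nucleus and switches on genes of cholesterol and fatty acid synthesis. LXRs, nuclear receptors activated by oxysterols, switch on cholesterol export through ABC transporters and also transcription of Srebf1. Brain cells make most of their own cholesterol, since lipoproteins of the blood do not pass the blood-brain barrier, and astrocytes are a main source of it for neurons.

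SREBPs bind sterol regulatory elements beside sites of NF-Y and Sp1, and the promoters of 4 genes are shown for these sites. They are the 4 members with the smallest p in NSCs that have 1 entry in the RefSeq promoter table of GRCm38.p6, and each is printed from 5′ to 3′ on the strand of the gene, as the 250 bases before the annotated start. Capitals mark the NF-Y box, CCAAT or its complement ATTGG, and the core of the sterol regulatory element searched here, CACNCCA or its complement. Lss lies at chr10:76531355-76531604 on the plus strand, Hmgcs1 at chr13:119690101-119690350 on the plus strand, Idi1 at chr13:8885356-8885605 on the plus strand and Acat2 at chr17:12960726-12960975 on the minus strand.
Lss promoter: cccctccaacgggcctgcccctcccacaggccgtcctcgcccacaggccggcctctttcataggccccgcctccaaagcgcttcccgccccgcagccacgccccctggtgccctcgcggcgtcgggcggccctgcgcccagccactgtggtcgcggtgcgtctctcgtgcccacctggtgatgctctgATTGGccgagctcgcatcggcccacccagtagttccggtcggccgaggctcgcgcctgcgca
Hmgcs1 promoter: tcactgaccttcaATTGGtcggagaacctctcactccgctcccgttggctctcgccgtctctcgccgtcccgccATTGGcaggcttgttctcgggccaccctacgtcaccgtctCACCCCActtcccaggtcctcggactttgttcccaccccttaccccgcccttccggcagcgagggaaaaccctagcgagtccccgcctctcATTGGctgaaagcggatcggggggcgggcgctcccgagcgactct
Idi1 promoter: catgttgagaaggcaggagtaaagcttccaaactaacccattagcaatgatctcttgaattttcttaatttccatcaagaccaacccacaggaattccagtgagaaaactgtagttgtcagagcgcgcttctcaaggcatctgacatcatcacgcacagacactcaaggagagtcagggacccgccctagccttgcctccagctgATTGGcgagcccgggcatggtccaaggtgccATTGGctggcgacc
Acat2 promoter: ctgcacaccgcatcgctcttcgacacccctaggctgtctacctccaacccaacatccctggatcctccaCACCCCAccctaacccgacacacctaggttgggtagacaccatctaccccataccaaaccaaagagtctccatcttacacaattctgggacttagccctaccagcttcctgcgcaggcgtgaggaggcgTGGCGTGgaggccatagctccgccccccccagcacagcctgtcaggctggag
The Lss promoter held an NF-Y box that begins at -62 from the start, and the Idi1 promoter held boxes at -45 and -14. In Hmgcs1 there were boxes at -237, -176 and -45, another at 10 after the start, and an element core at -136. Acat2 had no NF-Y box in this window, but element cores at -181 and -52. Promoters of 30 members matched the table, and windows of 250 bases before to 50 after the start held CCAAT on either strand in 22 of them (73.3%), against 41.1% of all 27025 genes with a promoter there. The Sp1 box GGGCGG was present in 24 of the 30 (80%), against 38.2% of all genes, and the E-box CACGTG in 6 (20%), against 8.09%. The element core was not more frequent among the members, with 5 of 30 (16.7%) against 20.6% of all genes. A match describes letters in a window and not binding. Abcg1, Fads1, Fdft1, Fdps, Scd1, Scd2, Sqle and Stard4 were not matched to the table.

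Between 2354615 and 2588130 reads were counted on genes per NSC library, and 13016924 and 14008670 in the S89G-DMP1 and WT astrocyte libraries. Counts were scaled to CPM, a share of the library's counts, with edgeR's TMM factors, and the NSC genotypes were compared over all 11194 genes with enough counts by edgeR's quasi-likelihood test, where a gene is called at a Benjamini-Hochberg adjusted p under 0.05. Dmp1 had 6, 3 and 5 counts in the S89G-DMP1 NSC libraries and 18, 21 and 16 in WT, and 119 and 2 counts in the S89G-DMP1 and WT astrocyte libraries, which does not check the labels, since the mutation changes a codon that the counts do not show. The astrocyte libraries stood apart in their markers: the library labelled WT held 8 counts of Aqp4, 8 of Slc1a3 and 90 of Gfap, against 4051, 3877 and 901 in S89G-DMP1. Of 11 astrocyte markers counted, 9 were higher and 2 lower in S89G-DMP1. The 2 were Glul, with 4247 counts in WT and 3709 in S89G-DMP1, and S100b, with 64 and 30. Gja1 and Sox9 were lower in WT but well detected, with 1165 and 539 counts against 1913 and 1820 in S89G-DMP1. The sum of the whole list was 514 CPM in the WT library and 1550.4 CPM in the other. Fibroblast and meningeal markers summed to 6961 CPM in the WT library, against 2356 CPM in S89G-DMP1.

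In NSCs, 13 of 19 sterol enzymes and 8 of 10 fatty acid synthesis genes rose in S89G-DMP1 and 0 fell (also 0 at an unadjusted p under 0.05 and by DESeq2), while Srebf1, Scap and Abca1 fell. Of the 38 members, 36 had enough counts for the test, and 23 of these rose, 3 fell and 10 were not called, where 7.08% of all tested genes rose, 8.76% fell and 15.8% were called in either direction. Among the 8139 tested genes with a mean of at least 20 CPM, a level that all 36 tested members reached, 8.67% rose and 9.77% fell, a background chosen after the data were seen. The member counts exceeded both backgrounds for rises, 23 of 36, and were near them for falls, 3 of 36. Since the members were chosen with earlier results of these data known, this excess is a description and not a test. Libraries of the genotypes did not overlap for 24 members higher and 4 members lower in S89G-DMP1, against 14.8% and 16.0% of all tested genes. The median log2 fold change was 0.26 over the 36 members and 0.0026 over all tested genes. DESeq2 called 19 members higher and 1 lower, where it called 3.11% of all genes higher and 4.49% lower. Sqle, Hsd17b7, Sc5d, Fads2, Srebf1 and Scap lost their calls there. In the deposited TPM values, which are scaled for transcript length and depth, limma on log2(TPM + 1) called 4 members higher, Acat2, Lss, Acss2 and Fasn, and 1 lower, Scap. The median spread within a genotype was a standard deviation (SD) of 0.119 on that scale over the tested members, against 0.0625 on log2(CPM + 1) of the counts.

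**Figure D1:**
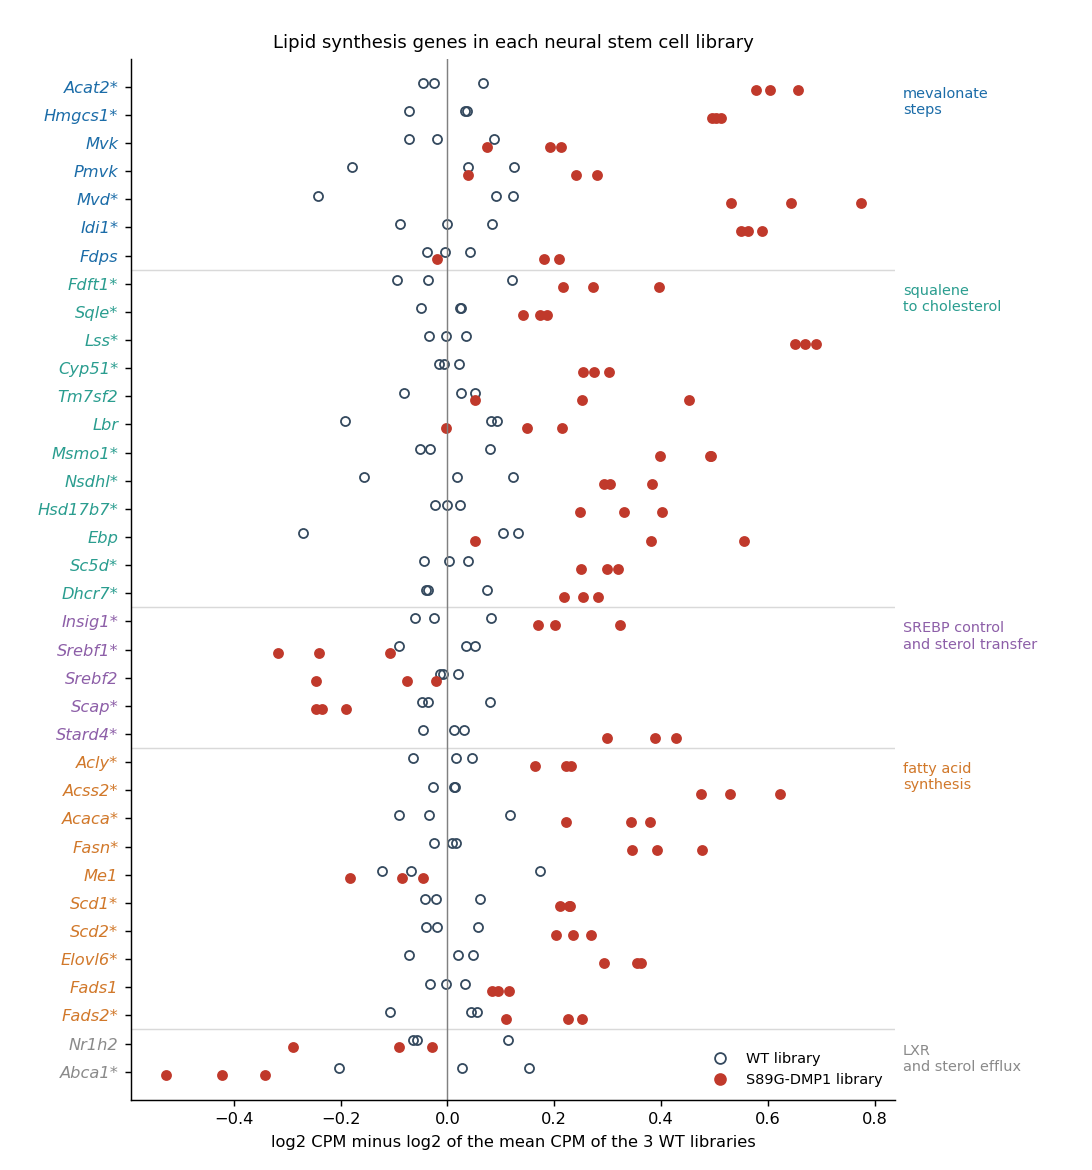
Each point is an NSC library, and the x axis gives its log2 CPM minus the log2 of the mean CPM of the 3 WT libraries, for the 36 members tested, grouped by role. Open circles are WT libraries, filled circles S89G-DMP1 libraries, and asterisks mark members called by edgeR's quasi-likelihood test. The filled circles of most sterol and fatty acid enzymes lie to the right of all open circles, those of Srebf1, Scap and Abca1 to the left.

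The mevalonate steps, which turn acetyl-CoA into the isoprenoid building blocks of sterols, had the highest median of the 5 roles. All 7 enzymes had log2 fold changes above 0, 4 were called, and their median was 0.50. Their summed level was between 2953 and 3001 CPM in the S89G-DMP1 libraries and between 2032 and 2140 CPM in WT, a ratio of 1.41. Acat2 encodes the cytosolic thiolase that joins acetyl-CoA units at the entry of the pathway. It had 225, 229 and 238 CPM in the S89G-DMP1 libraries and 148, 158 and 146 CPM in the WT libraries. All S89G-DMP1 libraries were above all WT libraries, with a log2 fold change of 0.61 ± 0.07 (standard error) and an adjusted p of 2.7e-11. Hmgcs1, the synthase of hydroxymethylglutaryl-CoA, stood at 2039.9, 2017 and 2026 CPM in S89G-DMP1 and at 1467, 1463 and 1359.9 CPM in WT. The groups did not overlap, and the rise was 0.50 ± 0.05 on the log2 scale (adjusted p = 5.8e-14), against 0.21 on log2(TPM + 1), not called. Mvd, the decarboxylase that makes isopentenyl diphosphate, had 176, 149 and 160.4 CPM in S89G-DMP1 and 86.8, 112 and 109 CPM in WT. WT replicate 1 was the lowest library, the groups were apart, and the log2 fold change was 0.65 ± 0.08 (adjusted p = 2.1e-09). Idi1 encodes the isomerase that acts next. Its S89G-DMP1 libraries had 355, 346 and 349 CPM and its WT libraries 250.3, 236 and 222 CPM, again without overlap, a rise of 0.57 ± 0.06 (adjusted p = 1.2e-11).

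The mevalonate kinases and the prenyl transferase between them and squalene were not called. Mvk, which phosphorylates mevalonate, had a log2 fold change of 0.16 ± 0.09 (adjusted p = 0.217), Pmvk, the kinase of the following step, 0.19 ± 0.11 (adjusted p = 0.231) and Fdps, which makes farnesyl diphosphate, 0.12 ± 0.12 (adjusted p = 0.536). In each of them libraries of the genotypes overlapped. Fdps reads are uncertain, since 26.7% of its exon bases overlap another annotated gene on the same strand and the mouse genome holds processed copies of it. The mean TPM of Fdps was 822 in WT and 981 in S89G-DMP1, against 42.3 and 46.2 CPM. On log2(TPM + 1) its difference was 0.26, not called. In Idi1 and Hmgcs1, 9.22% and 12.1% of the exon bases overlap a gene on the opposite strand, and the sources used here do not state whether counting used strand.

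From squalene to cholesterol, all 12 enzymes had log2 fold changes above 0 and 9 were called, with a median of 0.30. Summed over the 12, the level was between 2770.2 and 2857 CPM in S89G-DMP1 and between 2207 and 2266 CPM in WT, a ratio of 1.25. Lss, the cyclase that closes the sterol rings to lanosterol, had the smallest p of all members and ranked 30 by p among all tested genes. It had 409, 414 and 403 CPM in the S89G-DMP1 libraries and 251, 263 and 256 CPM in WT. The libraries within each genotype lay close together and the groups far apart, with a log2 fold change of 0.67 ± 0.06 (adjusted p = 5.1e-15) or 1.59-fold. Msmo1, an oxygenase that removes methyl groups from sterols, followed with 267, 250.4 and 267 CPM in S89G-DMP1 and 201, 183 and 186 CPM in WT. Its groups did not overlap, and the rise was 0.46 ± 0.06 (adjusted p = 3.9e-08), against 0.20 on log2(TPM + 1), not called.

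Cyp51, the demethylase of lanosterol, had 559, 567 and 578 CPM in S89G-DMP1 and 464, 476 and 466 CPM in WT. The narrow spread in both groups let a rise of 0.28 ± 0.05 on the log2 scale pass (adjusted p = 4.4e-05), although log2(TPM + 1) gave a difference of -0.07 that was not called. Fdft1, squalene synthase, had 233, 242 and 264 CPM in S89G-DMP1 and 196, 188 and 218 CPM in WT. Its highest WT library was just under its lowest S89G-DMP1 library, with a rise of 0.30 ± 0.07 (adjusted p = 4.9e-04), and 18.3% of its exon bases overlap Ctsb on the opposite strand. Nsdhl, a dehydrogenase of the demethylation complex, had 151, 152 and 161 CPM in S89G-DMP1 and 134, 111 and 125 CPM in WT. There was again no overlap, with a rise of 0.33 ± 0.07 (adjusted p = 6.8e-04).

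The 4 other called enzymes rose by less or with less certainty: Hsd17b7, the ketone reductase of the same complex (0.33 ± 0.08), Sc5d, the desaturase of the sterol ring (0.29 ± 0.08), Dhcr7, the reductase of the last double bond in one branch of the pathway (0.25 ± 0.06), and Sqle, the squalene epoxidase (0.17 ± 0.05). Their adjusted p ranged from 0.0018 for Dhcr7 to 0.0221 for Sqle, and on log2(TPM + 1) Dhcr7 was at 0.17 and Sqle at 0.11, neither called. With each of the 6 libraries omitted in turn, Sqle was called 2 times and the others 6 times. Tm7sf2 and Lbr, both sterol reductases of the same step, and Ebp, an isomerase, were not called, with log2 fold changes of 0.26 ± 0.12 (adjusted p = 0.116), 0.13 ± 0.08 (adjusted p = 0.320) and 0.35 ± 0.16 (adjusted p = 0.136). Ebp had the fewest counts among the tested members, with 46 to 58 counts in the WT libraries and 53 to 74 in S89G-DMP1, and Tm7sf2 was called in the fit without S89G-DMP1 replicate 1 (adjusted p = 0.0451).

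Among the genes that control SREBP, direction differed. Insig1, a retention protein of the endoplasmic reticulum and itself a known SREBP target, rose by 0.23 ± 0.05 on the log2 scale (adjusted p = 9.2e-04), against 0.08 on log2(TPM + 1), not called. Stard4, which carries cholesterol between membranes, had 193, 211 and 206 CPM in S89G-DMP1 and 161, 158 and 152 CPM in WT. Its groups were apart, and it rose by 0.37 ± 0.07 (adjusted p = 1.8e-05), against 0.60 on log2(TPM + 1), not called. The values of the falling genes are given as well, a choice made after they were seen. Srebf1, which encodes the SREBP known mostly for fatty acid genes, had 244, 223 and 211 CPM in S89G-DMP1 and 273, 269.6 and 247 CPM in WT. The highest S89G-DMP1 library lay just below the lowest WT library, and the fold change was -0.22 ± 0.06 (adjusted p = 0.0099). Scap had 130.2, 134 and 129 CPM in S89G-DMP1 and 148, 162 and 149 CPM in WT, without overlap, and fell by 0.23 on the log2 scale (standard error 0.07, adjusted p = 0.0209). Srebf2, which encodes the SREBP known mostly for cholesterol genes, was not called, at -0.11 ± 0.05 (adjusted p = 0.149), although its 561 to 655 CPM in S89G-DMP1 lay below the 659 to 675 CPM in WT. Without S89G-DMP1 replicate 3, Srebf1 and Scap were not called and Abca1 was the 1 member called lower. With each of the 6 libraries omitted in turn, Srebf1 was called 4 times and Scap 3 times, and 13.2% of the exon bases of Scap overlap a gene on the opposite strand.

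Fatty acid synthesis genes rose in 8 of 10 cases, with a median log2 fold change of 0.23 over the 10. The sum was between 9864 and 10220.3 CPM in S89G-DMP1 and between 8296 and 8556 CPM in WT, a ratio of 1.19. Acss2, the synthetase that makes acetyl-CoA from acetate in the cytosol and nucleus, had 154, 148 and 164 CPM in S89G-DMP1 and 105, 108 and 107 CPM in WT. It was the largest rise of the group, 0.54 ± 0.07 (adjusted p = 3.8e-08), with WT libraries almost alike and all S89G-DMP1 libraries above them. Fasn, fatty acid synthase, had 1793, 1692 and 1638 CPM in S89G-DMP1 and 1266, 1296 and 1303 CPM in WT. The groups were far apart for a rise of 0.41 ± 0.05 (adjusted p = 2.2e-10). Elovl6, the elongase of saturated fatty acids, had 321, 322 and 307 CPM in S89G-DMP1 and 254, 239 and 259 CPM in WT. It rose by 0.34 ± 0.06 without overlap (adjusted p = 1.4e-05), against 0.14 on log2(TPM + 1), not called. Acaca, the carboxylase that makes malonyl-CoA, had 318, 285 and 310.4 CPM in S89G-DMP1 and 229.7, 265 and 239 CPM in WT. WT replicate 2 was nearest to the S89G-DMP1 libraries but below them, and the rise was 0.32 ± 0.06 (adjusted p = 9.9e-05).

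Scd2, the stearoyl-CoA desaturase that prevails in brain, had the highest level of all members per kilobase of exon, with a WT mean of 776 CPM per kilobase, above Hmgcs1 with 311, Insig1 with 156 and Acly with 126. Its libraries had 5114, 4996 and 4887 CPM in S89G-DMP1 and 4414, 4124 and 4187 CPM in WT. The groups did not overlap for a rise of 0.24 ± 0.04 (adjusted p = 2.6e-05). Scd1, the paralog known from liver and fat, rose by 0.22 ± 0.05 (adjusted p = 7.5e-04), Acly, which makes acetyl-CoA from citrate, by 0.21 ± 0.05 (adjusted p = 0.0017), and Fads2, a desaturase of polyunsaturated fatty acids, by 0.20 ± 0.06 (adjusted p = 0.0098). Omitting each of the 6 libraries in turn, Fads2 was called 4 times. Fads1, a desaturase that acts after Fads2, was not called at 0.10 ± 0.05 (adjusted p = 0.208), with 534 to 546 CPM in S89G-DMP1 just above 493 to 516 CPM in WT. Me1, the malic enzyme that supplies NADPH, was also not called, at -0.11 ± 0.07 (adjusted p = 0.361), and its groups overlapped.

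Among the LXR and efflux genes, 0 rose and 1 fell in NSCs by edgeR's quasi-likelihood test, and 0 rose at an unadjusted p under 0.05 or by DESeq2. Abca1, the transporter that loads cholesterol on lipoproteins, was measured in S89G-DMP1 at 62.8, 55.2 and 59.4 CPM and in WT at 88.5, 69.1 and 81.1 CPM. All S89G-DMP1 libraries were below all WT libraries, with a log2 fold change of -0.42 ± 0.10 (adjusted p = 0.0012), and it was also called with each of the 6 libraries omitted in turn and by DESeq2 (adjusted p = 0.0307). Nr1h2, which encodes the LXR found in most tissues, was not called at -0.13 ± 0.11 (adjusted p = 0.467). Nr1h3, the other LXR gene, and Abcg1, a cholesterol transporter of the same family as Abca1, had too few counts to be tested. Nr1h3 had 4, 2 and 3 counts in S89G-DMP1 and 4, 6 and 3 counts in WT. Abcg1 had 6, 3 and 1 counts in S89G-DMP1 and 7, 6 and 8 counts in WT, and neither gene entered the main test.

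Other genes of lipid metabolism were followed in 5 lists around the members. Of their 100 genes, 89 were tested, 8 rose and 8 fell, where 7.08% of all tested genes rose and 8.76% fell, and their median log2 fold change was -0.02. DESeq2 called 3 of them higher and 3 lower, where it called 3.11% and 4.49% of all genes. On log2(TPM + 1), limma called 1 higher and 0 lower. SREBP processing and turnover held 11 tested genes, of which Mbtps2, a protease that releases SREBPs, rose (0.34 ± 0.11, adjusted p = 0.0229) and Sec23a, a coat protein of transport to the Golgi, fell (-0.34 ± 0.09, adjusted p = 0.0046), and DESeq2 called 0 genes of this list. The isoprenoid branch, which leads from mevalonate to prenylated proteins and ubiquinone, had 15 tested genes and 0 called by edgeR's quasi-likelihood test or by DESeq2, with 2 higher at an unadjusted p under 0.05 and a median of 0.03. Of 16 tested genes of cholesterol uptake, storage and export, 2 fell, the lipoprotein receptors Lrp1 (-0.38 ± 0.05, adjusted p = 7.8e-08) and Vldlr (-0.39 ± 0.08, adjusted p = 2.6e-04), and 0 rose, also at an unadjusted p under 0.05 and by DESeq2. In fatty acid oxidation, 0 of 21 tested genes rose and 3 fell, the thiolases Acaa1a (-0.40 ± 0.11) and Acaa2 (-0.39 ± 0.12) and the dehydrogenase Acads (-0.39 ± 0.12). Their adjusted p were 0.0065, 0.0216 and 0.0216, DESeq2 called 0 of them, and at an unadjusted p under 0.05 there were 0 higher and 6 lower genes in this list.

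Fatty acid activation, elongation and lipid assembly was the 1 list of these 5 with several rises, 7 of 26 tested genes, beside 2 that fell, or 3 and 1 by DESeq2. Acsl3, which activates fatty acids and is found at lipid droplets, rose by 0.67 ± 0.07 (adjusted p = 7.5e-12). Fabp7, a fatty acid binding protein of radial glia that is also a progenitor marker, rose by 0.56 ± 0.05 (adjusted p = 2.2e-14), and Mid1ip1, a partner of acetyl-CoA carboxylase, by 0.30 ± 0.07 (adjusted p = 0.0020). Dgat1, which makes triglyceride, fell by 0.57 on the log2 scale (standard error 0.13, adjusted p = 9.9e-04).

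**Figure D2:**
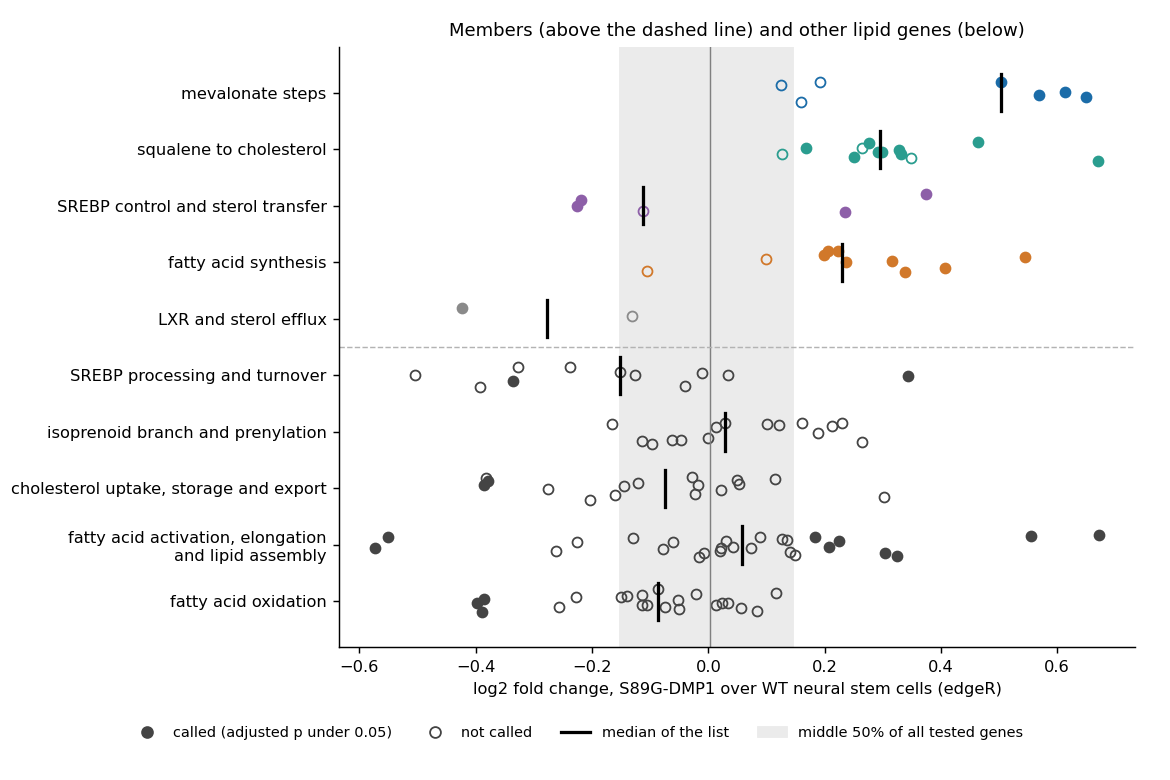
The x axis gives the log2 fold change of S89G-DMP1 over WT NSCs for each tested gene, and the rows are the 5 roles of the members, above the dashed line, and the 5 other lipid lists. Filled points were called, open points were not, bars mark the median of each list, and the grey band spans the lower to the upper quartile of all tested genes. The mevalonate median of 0.50, the squalene to cholesterol median of 0.30 and the fatty acid synthesis median of 0.23 lie right of the band.

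Other cell features moved along with the sterol and fatty acid genes in NSCs. The 12 proliferation markers summed to 4190.3 to 4454 CPM in S89G-DMP1 and 3512 to 3594 CPM in WT, and 10 of them rose (6 by DESeq2), among them Mki67 (0.36 ± 0.05). The astrocyte markers summed to 2489 to 2536 CPM in S89G-DMP1 and 1934 to 1983 CPM in WT, and Aldh1l1, Gja1, Fgfr3 and Slc1a3 rose among 9 tested. Of 8 tested markers of the oligodendrocyte lineage, a lineage with high sterol synthesis, Pdgfra and Cspg4 fell and 0 rose (DESeq2 called 1 lower and 0 higher, and 0 were higher at an unadjusted p under 0.05), and the list summed to 2731 to 2895 CPM in S89G-DMP1 and 2720.1 to 2971 CPM in WT. Among the progenitor markers, Fabp7 and Egfr rose and Notch1 fell. All 10 microglia markers had at most 1 count in any library, and 10 of 12 fibroblast and meningeal markers had at most 3 counts summed over the 6 libraries. The part of these features in the rise of the lipid genes was not tested, and in such bulk RNA a change in the share of cells of a type and a change of RNA per cell cannot be told apart.

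In the astrocyte cultures the picture was different, with the WT library above the S89G-DMP1 library for most members. There is 1 library per genotype and so no replicate check and no test, and the intervals below cover counting error only. All 38 members reached the minimum of 10 counts in either library. By log2 ratio of TMM-scaled CPM, 9 were higher and 29 lower in S89G-DMP1, with 0 members higher by 2-fold or more and 7 lower by 2-fold or more, where the shares among the 15680 genes counted were 17.3% for 2-fold or more above WT and 12.8% for 2-fold or more below. The median log2 ratio was -0.53 over the members and 0.01 over all genes. Scaled by library size alone, the median of all genes was 0.30 and that of the members -0.24, with 13 members higher and 25 lower, 1 at least 2-fold higher (Fads2) and 2 at least 2-fold lower (Nr1h3 and Fdps).

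**Figure D3:**
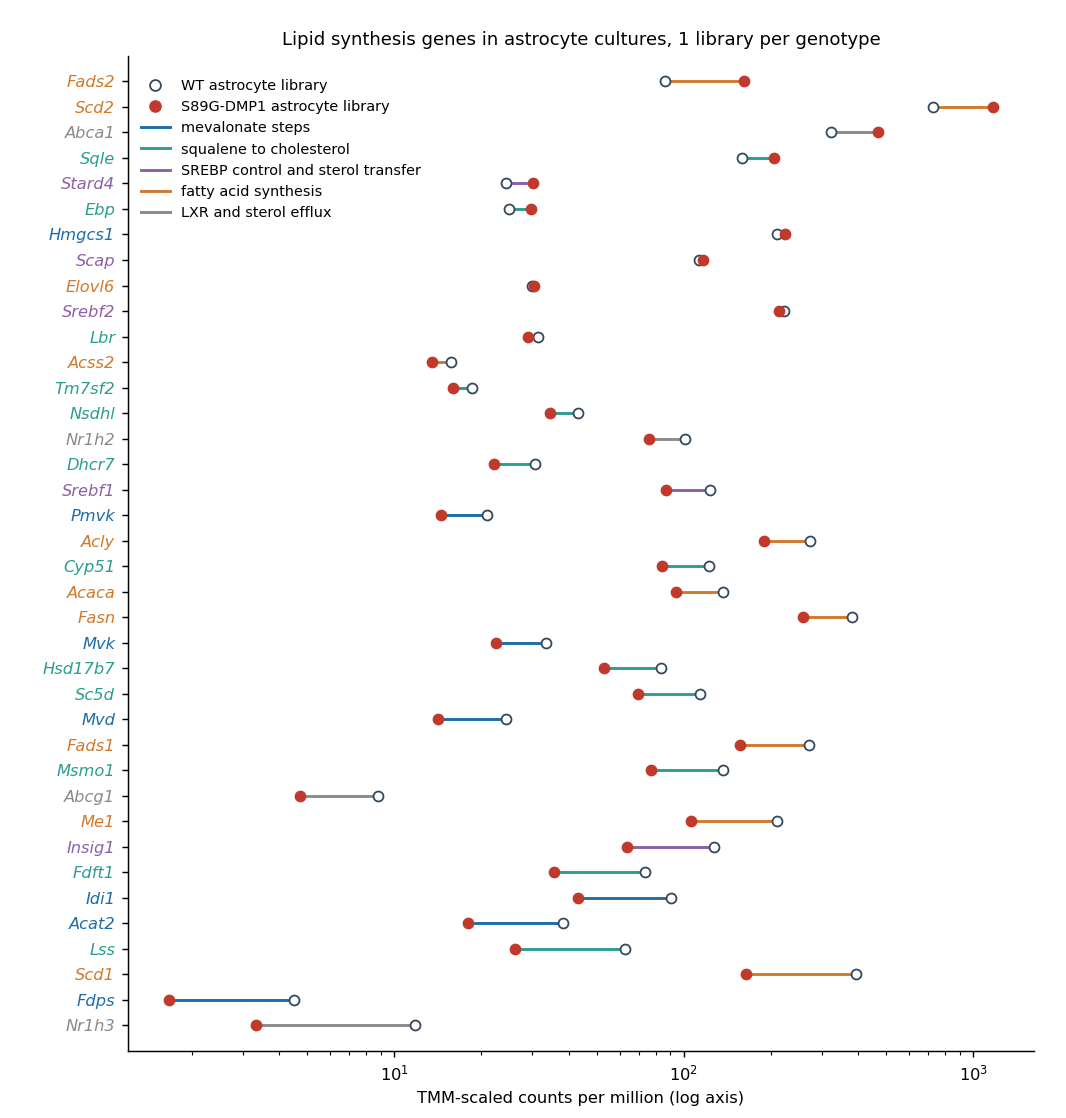
For each of the 38 members, the open circle gives the TMM-scaled CPM in the WT astrocyte library and the filled circle that in the S89G-DMP1 library, on a log axis, ordered by the log2 ratio. Line colour marks the role. Fads2, Scd2 and Abca1 at the top have the filled circle on the right, and from Srebf2 downwards the filled circle lies on the left.

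The members at least 2-fold lower included 5 sterol enzymes. Lss had 375 counts (26.0 CPM) in the S89G-DMP1 library and 792 (62.6 CPM) in WT, a log2 ratio of -1.26 or 0.416-fold (95% exact interval 0.367 to 0.471). Acat2 had 258 and 486 counts (17.9 and 38.4 CPM, log2 ratio -1.09), Idi1 622 and 1148 counts (43.2 and 90.7 CPM, log2 ratio -1.07) and Fdft1 514 and 932 counts (35.7 and 73.6 CPM, log2 ratio -1.04). Fdps, whose reads are uncertain as stated above, had 24 and 57 counts (1.67 and 4.50 CPM, log2 ratio -1.36), few in both libraries. Each of these was higher in the WT library, which was also the one with 8 counts each of Aqp4 and Slc1a3 and the lower sum of astrocyte markers. Scd1 had 2370 counts (165 CPM) in S89G-DMP1 and 5006 (395 CPM) in WT, a log2 ratio of -1.26. Nr1h3, the LXR gene known from macrophages and liver, had 48 and 149 counts (3.33 and 11.8 CPM), the largest difference of all members at -1.78, or 0.283-fold with an interval of 0.200 to 0.394. Microglia markers summed to 1154 CPM in S89G-DMP1 and 830 CPM in WT, with 9 higher and 1 lower in S89G-DMP1. Their part in the value of Nr1h3 was not tested. Insig1 with 920 and 1612 counts (63.9 and 127 CPM) and Me1 with 1524 and 2667 counts (106 and 211 CPM) were just short of 2-fold, both at -0.99.

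Fads2 was the member with the largest ratio above 0, with 2319 counts (161 CPM) in S89G-DMP1 and 1092 (86.2 CPM) in WT, a log2 ratio of 0.90 or 1.87-fold (1.74 to 2.01). Scd2 followed at 0.69, with 16851 and 9178 counts (1170.0 and 725 CPM), then Abca1 at 0.55 and Sqle at 0.37. Stard4 (0.31), Ebp (0.25), Hmgcs1 (0.10), Scap (0.05) and Elovl6 (0.02) were also above 0, and the counting intervals of Scap and Elovl6 included no difference. By role, 6 of 7 mevalonate enzymes (median -0.77), 10 of 12 enzymes from squalene to cholesterol (median -0.51), 7 of 10 fatty acid genes (median -0.53) and 3 of 4 LXR and efflux genes were lower in S89G-DMP1. The genes of SREBP control and sterol transfer were split, with 2 higher and 3 lower (median -0.06), or 3 higher and 2 lower by library size alone (median 0.23). Summed CPM of the 19 sterol enzymes was 1019.8 in S89G-DMP1 and 1321 in WT. Proliferation markers, in contrast, summed to 854 CPM in S89G-DMP1 and 158 CPM in WT, and neural stem and progenitor markers to 2543 and 892 CPM, with Fabp7 at 4950 and 23 counts, while fibroblast and meningeal markers went the other way as given above. Genotype and the makeup of the cultures cannot be told apart with these libraries.

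Placed side by side, the genotypes differed in opposite directions in NSCs and astrocyte cultures for most sterol enzymes. Of the 23 members that rose in S89G-DMP1 NSCs, 6 were higher and 17 lower in the S89G-DMP1 astrocyte library (7 and 16 by library size alone). Of the 3 that fell in NSCs, Abca1 was higher in astrocytes (1.46-fold, 1.40 to 1.52) and Srebf1 lower, and the ratio of Scap, 1.03-fold, had a counting interval of 0.963 to 1.11 that includes 1. Lss, with the smallest p in NSCs and a log2 fold change of 0.67, was at -1.26 in astrocytes, and Acat2 went from 0.61 to -1.09. Hmgcs1 (0.50 and 0.10), Stard4 (0.37 and 0.31), Elovl6 (0.34 and 0.02), Scd2 (0.24 and 0.69), Fads2 (0.20 and 0.90) and Sqle (0.17 and 0.37) were above 0 in both, Elovl6 within counting error in astrocytes. The difference between the culture types was not tested, since the astrocytes have 1 library per genotype. The culture types were also grown in different media and aligned with different programs.

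**Figure D4:**
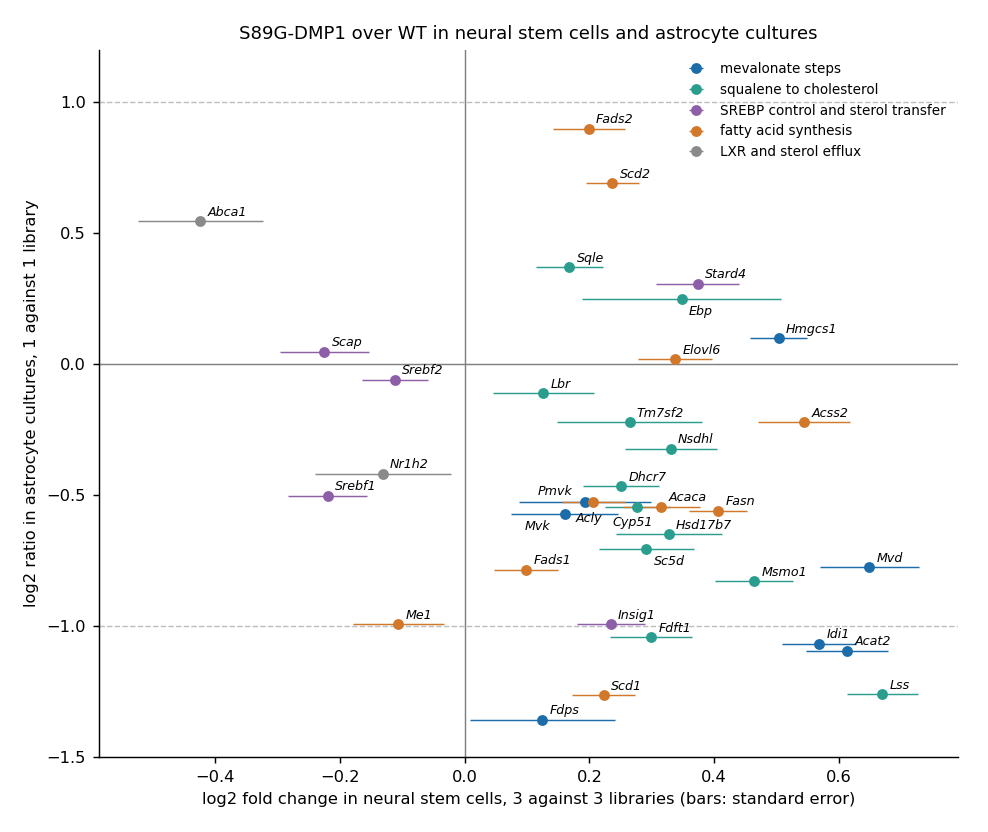
The x axis gives the log2 fold change of S89G-DMP1 over WT in NSCs (3 against 3 libraries, bars are the standard error) and the y axis the log2 ratio in astrocyte cultures (1 against 1 library, TMM-scaled) for the 36 members tested in NSCs, coloured by role. Dashed lines mark 2-fold. Lss, Acat2, Idi1, Fdft1 and Scd1 lie at the lower right, above WT in S89G-DMP1 NSCs and below the 2-fold line in astrocytes, and Abca1 lies at the upper left.

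Ratios between paralogs within a library need no scaling between libraries, and were taken after the data were seen. Scd2 and Scd1 encode desaturases with the same reaction, and the ratio of their counts was 7.17, 7.19 and 7.21 in the WT NSC libraries and 7.39, 7.23 and 7.15 in the S89G-DMP1 NSC libraries. Both genes rose in S89G-DMP1 NSCs, and the counting intervals of their ratio overlapped in all 6 NSC libraries. The S89G-DMP1 astrocyte library had 7.11 (95% exact interval 6.81 to 7.43), like the NSCs, whereas the WT astrocyte library had 1.83 (1.77 to 1.90) and stood alone. Fads2 counts over those of Fads1 were between 0.665 and 0.788 in the 6 NSC libraries, 1.03 in S89G-DMP1 astrocytes (0.969 to 1.09) and 0.319 in WT astrocytes (0.298 to 0.342). The WT astrocyte library was thus the lowest in both ratios, and reads shared between such paralogs could shift them.

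**Figure D5:**
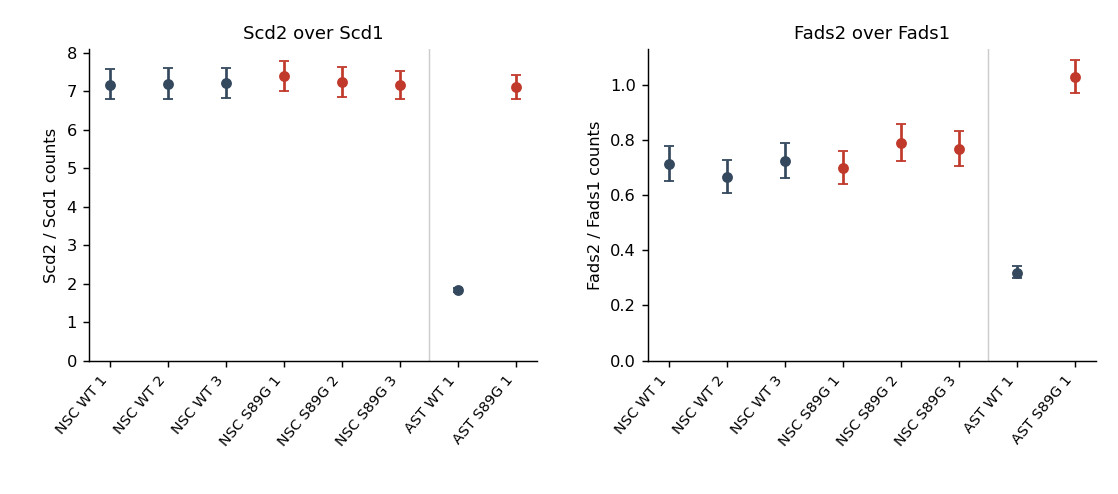
Points give the count of Scd2 divided by that of Scd1 (left) and of Fads2 divided by that of Fads1 (right) in each library, with 95% exact counting intervals as bars, WT libraries dark and S89G-DMP1 libraries red. The 6 NSC libraries lie between 7.15 and 7.39 on the left, and the WT astrocyte library lies apart at 1.83.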

How the data were processed

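Bulk RNA sequencing was used from 8 libraries, 3 S89G-DMP1 and 3 WT of NSCs and 1 of each genotype of astrocyte cultures, grouped by their labels, and 0 columns were left without a sample. Reads holding adapter or many undetermined or poor bases had been dropped by the authors, who deposited raw counts of reads per gene for both culture types, FPKM values for the astrocytes and TPM values for the NSCs. Per the submitters' processing notes, Bowtie2 2.0.6 and TopHat2 2.0.9 were used for the astrocytes, and HISAT2, StringTie and featureCounts with GRCm38 for the NSCs. The build and counting program of the astrocytes, and whether counting used strand, are not given in the sources used here.

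The counts gave the main results, and the deposited TPM and FPKM values gave alternatives on log2(value + 1) and log2(value + 0.1). For NSC counts, genes passing filterByExpr were given TMM factors, and genotype, without other terms, was assessed in a quasi-likelihood test of edgeR, adjusted by Benjamini-Hochberg over 11194 genes (R 4.3.3, edgeR 4.0.16, limma 3.58.1, DESeq2 1.42.0). The procedure was tested on simulated data. Astrocyte log2 ratios of TMM-scaled CPM used a prior count of 2 and a minimum of 10 counts in one or the other library, with no test. Library totals were 2354615 to 2588130 reads in NSCs and 13016924 and 14008670 in astrocytes, so counting error matters most for genes with few NSC counts. Pairs of libraries of a genotype had chi-square statistics, divided by the number of genes, between 1.07 and 1.51, above counting noise. They were kept as separate libraries, which these values do not show to be biological replicates. Alternatives were other scalings, filters, prior counts, fold thresholds and tools, each NSC library left out in turn and a replicate block.

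All 38 symbols matched gene IDs of the count tables. Positions, exon lengths and overlaps are those of GENCODE vM21 (GRCm38), and promoters those of RefSeq (GRCm38.p6). The members and the gene lists were chosen with earlier results of these data known, and the lists were written from general knowledge. All members were named, with values per library for the 15 called in NSCs with the smallest p and the 10 with the largest absolute log2 ratio in astrocytes, and of each other list at most the 4 called genes with the smallest p. Some genes are not reported here.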

Additional observations from a re-analysis of the deposited data

Results flagged for a closer look

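Of the members, 5 were called higher in S89G-DMP1 NSCs and were lower by 2-fold or more in the S89G-DMP1 astrocyte library. Their astrocyte log2 ratios were -1.09 for Acat2 (0.61 in NSCs), -1.07 for Idi1 (0.57 in NSCs), -1.04 for Fdft1 (0.30 in NSCs), -1.26 for Lss (0.67 in NSCs) and -1.26 for Scd1 (0.22 in NSCs). Scaled by library size alone, the astrocyte values were -0.80, -0.78, -0.75, -0.97 and -0.97, still below 0 but short of 2-fold. Every S89G-DMP1 NSC library lay above every WT NSC library for these genes, while the astrocytes have 1 library per genotype, so the difference between the culture types was not tested. The WT astrocyte library held 8 counts of Aqp4 and 8 of Slc1a3, and the part of the makeup of the cultures in these values was not tested.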

How the results depend on the processing

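In NSCs, RLE factors, library size alone, no low-count filter and a minimum of 10 counts in every library each gave 23 members higher and 3 lower, with the same call for all 36 tested members. The replicate number as a replicate block also left all 36 calls as they were (23 higher and 3 lower, with 829 and 1016 of all genes). Same-numbered libraries did not deviate together (correlations of 0.03, -0.01 and -0.02). The labels do not say whether the numbers pair the libraries, and such correlations cannot decide it. DESeq2 called 348 genes higher and 503 lower, 1 member lower and 3 higher and 3 lower genes of the other lipid lists. In the TPM values, log2(TPM + 1) gave 38 higher and 107 lower genes, 4 and 1 members, 1 and 0 genes of the other lists and a member median of 0.19, and log2(TPM + 0.1) gave 31 and 85 genes, 3 and 0 members, 1 and 0 genes of the other lists and a median of 0.19. Pmvk (-0.16 and -0.17), Cyp51 (-0.0688 and -0.0692) and Me1 (0.0016 and 0.0016) changed sign there without being called, and the cause was not tested. With each library left out in turn, 21 to 23 members were higher and 1 to 3 lower, the median lay between 0.24 and 0.28, and the other lists gave 3 to 7 higher and 5 to 9 lower genes. Without S89G-DMP1 replicate 3 there were 3 higher genes in the other lists and 1 lower member, and without S89G-DMP1 replicate 2 or WT replicate 3 there were 5 lower genes in the other lists.

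In astrocytes, library size alone gave 1 member at least 2-fold higher and 2 lower with a median of -0.24. Log2(FPKM + 1) gave 1 and 1 members, 1020 lower genes and a median of -0.24, and log2(FPKM + 0.1) gave 1 and 2 members and a median of -0.24. At 1.5-fold, 2 members were higher and 15 lower, and 3327 of the 15680 genes counted were lower. The number of all genes higher at 1.5-fold is not given here, so the rises of members have no background at that threshold. A prior count of 0.5, a minimum of 50 counts and no filter left 0 members higher and 7 lower. Depth limits the NSC values of Nr1h3, Abcg1 and Ebp, and 1 library per genotype limits every astrocyte value.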
